A study of Mus musculus with 16 samples.

Results

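The aminoacyl-tRNA synthetases are described here in Neuro 2a, a mouse neuroblastoma cell line, across 4 groups of 4 bead arrays. The genes were taken by their platform symbol: a capital letter followed by ars, ars1 or ars2, together with the subunit and variant names Eprs, Farsa, Farsb, Tarsl2 and Aarsd1. This rule found 57 probes of 25697, which stand for 35 genes of 16593 named genes. Of these, 20 encode cytosolic enzymes, 14 encode mitochondrial enzymes, whose symbols end in 2, and 1 gene, Aarsd1, encodes a protein with an editing domain that is no synthetase. Gars and Kars, each of which makes both a cytosolic and a mitochondrial form, were counted as cytosolic.

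Cells had received hydrogen peroxide or no treatment, and all RNA, that of the controls included, carried ARP, the aldehyde reactive probe, which places a biotin on abasic sites. Basal-total and Ox-total held labelled RNA from untreated and peroxide-treated cells without selection, and Basal-ARP and Ox-ARP held the portion that was then captured on streptavidin beads. The labels give the strain as C57BL/6J, and the sources used here give neither the dose nor the duration of the peroxide treatment. The labels do not say that the 4 arrays of a group came from separate cultures, so p-values measure only the spread between these arrays. RNA captured from unlabelled samples was not analysed here, so binding to the beads through the label and binding without it cannot be told apart.

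A synthetase joins an amino acid to its tRNA, and the editing domains of several of these enzymes remove amino acids that were joined to the wrong tRNA. Cytosol and mitochondria mostly use separate sets of enzymes, all of them encoded in the nucleus. The cytosolic enzymes for Glu and Pro, Ile, Leu, Met, Gln, Arg, Lys and Asp assemble with 3 scaffold proteins into the multisynthetase complex. Many cytosolic synthetase genes are targets of ATF4, the transcription factor of the amino acid response.

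The array means ran from 327.71 to 532.769 in raw signal, and 10351 to 11068 probes per array, or 40.28% to 43.07%, had a detection p under 0.01. The lowest correlation between 2 arrays was 0.95. Of 11 neuron and neuroblastoma markers with a probe, 7 were detected on all 16 arrays (Elavl2, Elavl4, Gata2, Gata3, Hand2, Isl1 and Stmn2) and Mycn, Nefl and Nefm on 0. Of the markers of other cells, 0 of 6 for fibroblasts and 0 of 4 for macrophages and blood were detected on all 16 arrays, as against 1 of 5 for glia (Mbp). Detected on 0 arrays were 4 of 6 for fibroblasts, 4 of 4 for macrophages and blood, and 4 of 5 for glia. The fibroblast markers Pdgfra and Dcn were detected on some arrays, and Dcn on all 4 of at least 1 group. In each group replicates 1 and 2 lay on 1 chip and replicates 3 and 4 on the other.

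A probe was tested if every array of 1 or more groups gave it a detection p under 0.01, which 46 of the 57 probes and 31 of the 35 genes met (19 cytosolic, 11 mitochondrial and Aarsd1). The 4 genes left out were those of the histidyl enzymes, Hars and Hars2, and the mitochondrial tryptophanyl and tyrosyl enzymes, Wars2 and Yars2. Of the 31 tested genes, 30 were detected on all 16 arrays. The exception was Cars, the cytosolic cysteinyl enzyme, which was detected on 0 of 4 arrays in Basal-total and 3 in Ox-total, and in captured RNA on 1 (Basal-ARP) and 4 (Ox-ARP). Levels below are log2 of the normalized bead intensity, and changes are differences between group means of these levels ± the standard error from limma (n = 4 arrays in each group). Calls were made where limma's adjusted p (Benjamini-Hochberg) was under 0.05 over all 8072 genes and unnamed probes tested. All arrays were scaled to 1 common distribution, so a change on capture is a change in a transcript's share of the signal and not in the amount recovered.

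The first comparison asked whether peroxide changed the level of synthetase transcripts in unselected RNA. No synthetase gene was called: 0 of 31 passed in limma, beside a background of 0.31% of all genes, and at an unadjusted p under 0.05 the counts were 1 higher and 2 lower. The median change was 0.02, beside a median of 0.0158 over all genes, and single genes ranged from -0.40 (Farsa) to 0.28 (Cars). The smallest unadjusted p belonged to Nars2, the mitochondrial asparaginyl enzyme. It was read in all comparisons from 1 dim probe, at percentile 10.3 of level, which was detected on all 16 arrays. On replicate 2 of Ox-total the lowest level of any detected probe was 5.71, so Nars2 lay next to background there. Nars2 levels were 6.12, 6.03, 6.03 and 6.19 in Basal-total and 5.69, 5.72, 5.82 and 5.82 in Ox-total. All 4 peroxide arrays lay below all 4 basal ones, but the change of -0.33 ± 0.09 did not pass (limma adjusted p = 0.17). Groups of arrays did not overlap for 3 of the 31 genes, or 9.68%, against 6.65% of all genes.

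Promoters are shown for the genes that carry the core of the C/EBP-ATF response element, the sequence that ATF4 binds as a dimer with C/EBP proteins, since the unselected RNA measures the transcripts of these genes after an oxidant. Sequences are RefSeq promoter windows of GRCm38.p6 that run from 250 bases before to 50 bases after a start site listed for the gene, and 26 of the 35 genes had one. The motif TGATGNAA was searched on both strands (TTNCATCA on the other one). It was found for 5 of the 26 genes, all cytosolic, and for 4.51% of the 27025 genes with a promoter in the table. Each sequence below is 68 bases long, on the strand of the gene and 5′ to 3′, with the match in capitals.
Aars, alanyl enzyme, chr8:111033700-111033767, plus strand: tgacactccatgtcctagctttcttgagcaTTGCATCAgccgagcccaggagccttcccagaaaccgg
Gars, glycyl enzyme, chr6:55037941-55038008, plus strand: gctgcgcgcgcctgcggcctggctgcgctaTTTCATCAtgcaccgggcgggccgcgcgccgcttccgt
Iars, isoleucyl enzyme, chr13:49682107-49682174, plus strand: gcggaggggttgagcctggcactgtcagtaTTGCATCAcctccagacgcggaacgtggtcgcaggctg
Tars, threonyl enzyme, chr15:11399636-11399703, minus strand: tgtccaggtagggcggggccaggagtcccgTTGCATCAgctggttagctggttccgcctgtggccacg
Yars, tyrosyl enzyme, chr4:129189876-129189943, plus strand: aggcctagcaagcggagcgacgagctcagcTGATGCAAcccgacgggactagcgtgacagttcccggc
For Gars, Iars and Tars that start site is the outer end of the gene's RefSeq span, while for Yars it lies 169 bases and for Aars 6064 bases inside the span. The Aars window held 2 matches, of which 1 is shown, and the others held 1 each. A match is a run of letters and not a measured binding site. None of these 5 genes passed in unselected RNA after peroxide: the changes were -0.07 for Aars, 0.13 for Gars, -0.06 for Iars, 0.02 for Tars and 0.13 for Yars. None of them passed in the other comparisons with the detection filter and all 16 arrays. Gars passed on capture without peroxide when dim probes were not filtered out (0.16, limma adjusted p = 0.0397), and Iars passed between the captured groups without replicate 1 of Basal-ARP (-0.44, limma adjusted p = 0.0428).

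**Figure D1:**
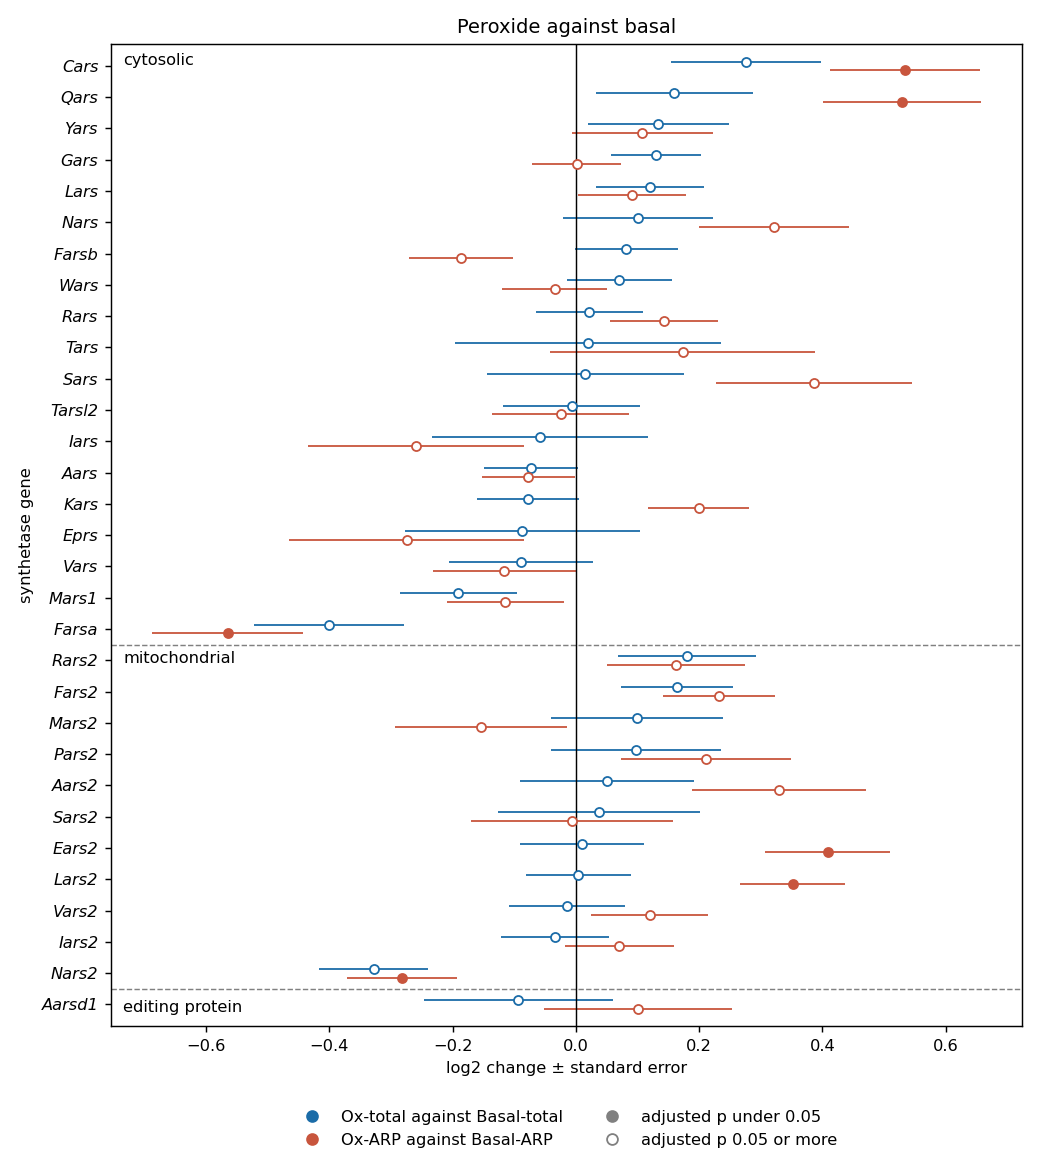
Change with peroxide of the 31 tested synthetase genes, as a log2 difference ± standard error on the x axis, in unselected RNA (Ox-total against Basal-total) and in captured RNA (Ox-ARP against Basal-ARP), with filled points for an adjusted p under 0.05 and genes grouped by compartment. The points of unselected RNA are all open and lie between -0.40 and 0.28, and 6 points of captured RNA are filled.

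The second comparison set captured against unselected RNA in untreated cells. Of the 31 genes, 3 rose (Farsb, Mars1 and Nars2) and 4 fell (Eprs, Farsa, Lars2 and Ears2). This is 22.6% called beside a background of 32.4% (16.4% up and 16.1% down), so the share of synthetase genes called was not above that of all genes. The median over the 31 was 0.06, beside 0.0138 over all genes, and array groups did not overlap for 8 of the 31, beside 27.6% of all genes. With each gene read from its brightest passing probe, no synthetase change reached 2-fold in any comparison, and the highest fold was 1.678 (Eprs, on capture with peroxide). Second probes of a gene could change more, as given for Eprs below.

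The genes of both subunits of the cytosolic phenylalanyl enzyme moved in opposite directions on capture. Farsb encodes the beta subunit, and Farsa the alpha subunit, which holds the catalytic site. Farsa was read from 1 dim probe, at percentile 18.3 of level, which was detected on all 16 arrays. Farsb had levels of 11.74, 11.85, 11.65 and 11.65 in Basal-total against 12.18, 12.31, 12.31 and 12.33 in Basal-ARP. All captured arrays lay above all unselected ones, and the gene rose by 0.56 ± 0.08 (limma adjusted p = 0.000113). Farsa had levels of 6.93, 7.27, 7.18 and 6.82 in Basal-total against 6.48, 6.60, 6.70 and 6.61 in Basal-ARP. Here all captured arrays lay below all unselected ones, and the gene fell by 0.45 ± 0.12 (limma adjusted p = 0.0090). A second Farsb probe gave a rise of 0.68 with an adjusted p of 3.24e-05 in the limma fit over all 10794 passing probes. On chip 1 alone the changes were 0.45 for Farsb and -0.56 for Farsa, and on chip 2 alone they were 0.67 and -0.35.

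Mars1, the cytosolic methionyl enzyme, which also charges the initiator tRNA, rose by 0.60 ± 0.09 (limma adjusted p = 0.000176). Its levels were 11.32, 11.26, 11.55 and 11.68 in Basal-total and 12.09, 11.95, 12.06 and 12.10 in Basal-ARP, with no overlap. Within the chips the change was 0.73 and 0.47. The second Mars1 probe differed by 0.05 and did not pass (limma adjusted p = 0.61), so the rise without peroxide rests on 1 of 2 probes.

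Eprs, which encodes the bifunctional enzyme that charges both Glu and Pro tRNAs, fell by 0.56 ± 0.19 (limma adjusted p = 0.032). Levels were 10.04, 10.29, 10.55 and 9.77 in Basal-total and 9.57, 9.12, 10.04 and 9.69 in Basal-ARP, and the groups overlapped. The second Eprs probe had levels of 9.02, 9.67, 9.66 and 9.32 in Basal-total against 8.03, 7.60, 8.94 and 8.39 in Basal-ARP. These did not overlap, and the probe fell by 1.18 ± 0.27 (limma adjusted p = 0.00357 over all probes). With 1 of 4 arrays left out (replicates 2 or 3 of Basal-total, 1 or 2 of Basal-ARP), the change of the brighter probe was -0.55 to -0.40 and no longer passed (adjusted p 0.0567 to 0.118). It was -0.82 on chip 1 alone and -0.29 on chip 2 alone.

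Among the mitochondrial enzymes 1 rose and 2 fell in captured RNA of untreated cells. Nars2 had levels of 6.46, 6.54, 6.22 and 6.41 in Basal-ARP, all above the 4 of Basal-total, and rose by 0.32 ± 0.09 (limma adjusted p = 0.012). Lars2, the mitochondrial leucyl enzyme, had levels of 8.65, 8.88, 8.94 and 8.98 in Basal-total and 8.61, 8.56, 8.58 and 8.71 in Basal-ARP, and fell by 0.25 ± 0.09 (limma adjusted p = 0.035). Ears2, the mitochondrial glutamyl enzyme, had levels of 9.02, 8.99, 8.74 and 9.05 against 8.89, 8.69, 8.42 and 8.64, and fell by 0.29 ± 0.10 (limma adjusted p = 0.036). The groups of Lars2 and of Ears2 overlapped, each through the lowest unselected array. Lars2 no longer passed without any 1 of 6 arrays (replicates 2, 3 or 4 of Basal-total, 1, 2 or 3 of Basal-ARP), with changes of -0.25 to -0.21 and an adjusted p of 0.0555 to 0.0981. Ears2 no longer passed without any 1 of 6 (replicates 1, 2 or 4 of Basal-total, 2, 3 or 4 of Basal-ARP), with changes of -0.30 to -0.21 and an adjusted p of 0.0588 to 0.114. On chips 1 and 2 alone the changes were 0.43 and 0.20 for Nars2, -0.18 and -0.31 for Lars2, and -0.21 and -0.36 for Ears2.

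The third comparison set captured against unselected RNA of peroxide-treated cells. Here 5 genes rose (Mars1, Qars, Kars, Nars2 and Farsb) and 2 fell (Farsa and Eprs), again 22.6% of the 31, beside a background of 25.9% (13.5% up and 12.4% down). The median was 0.11, beside 0.0281 over all genes, and array groups did not overlap for 8 genes, beside 28.2% of all genes. With and without peroxide 5 genes were called in common on capture, which is 5 of 7 in each comparison, and all 5 moved the same way (Mars1, Nars2 and Farsb up, Farsa and Eprs down). Over all genes tested 1226 were called in both, 46.8% of those called without peroxide and 58.7% of those called with it, and 97.9% of the 1226 moved the same way. These comparisons share no arrays.

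Mars1 had levels of 11.36, 11.13, 11.31 and 11.25 in Ox-total and 11.99, 11.82, 11.96 and 11.97 in Ox-ARP, without overlap, and rose by 0.67 ± 0.09 (limma adjusted p = 6.7e-05). Its second probe rose too, by 0.36 (limma adjusted p = 0.0013), from 9.20, 9.21, 9.28 and 9.26 to 9.61, 9.56, 9.60 and 9.61. The change of the brighter probe was 0.66 on chip 1 and 0.69 on chip 2.

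Farsb had levels of 11.92, 11.75, 11.89 and 11.67 in Ox-total and 12.13, 12.04, 12.21 and 12.01 in Ox-ARP, and rose by 0.29 ± 0.08 (limma adjusted p = 0.017). Farsa had levels of 6.98, 6.54, 6.44 and 6.64 in Ox-total and 6.22, 5.97, 5.93 and 6.01 in Ox-ARP, and fell by 0.62 ± 0.12 (limma adjusted p = 0.0013). The groups overlapped in neither gene, so both subunit genes again moved in opposite directions. Farsb no longer passed without replicate 4 of Ox-total or replicate 3 of Ox-ARP, with changes of 0.25 and an adjusted p of 0.0553 to 0.0565. Its second probe rose by 0.36 (limma adjusted p = 0.0072). Farsb also did not pass with median scaling, without normalization, with cyclic loess normalization or on either chip alone. Farsa did not pass without normalization or on chip 2 alone. On chips 1 and 2 alone Farsb changed by 0.25 and 0.33, and Farsa by -0.67 and -0.57.

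Eprs had levels of 10.12, 9.68, 10.10 and 10.40 in Ox-total and 9.21, 9.54, 9.34 and 9.23 in Ox-ARP, without overlap, and fell by 0.75 ± 0.19 (limma adjusted p = 0.0079). Its second probe went from 9.07, 8.09, 9.12 and 8.97 to 7.33, 7.02, 7.91 and 7.12 and fell by 1.47 ± 0.27 (limma adjusted p = 0.000805 over all probes). Within the chips the brighter probe changed by -0.52 and -0.97.

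Qars and Kars, the glutaminyl and lysyl members of the multisynthetase complex, were called on capture with peroxide. Qars had levels of 10.87, 10.75, 10.57 and 10.57 in Ox-total and 11.55, 11.23, 11.06 and 11.10 in Ox-ARP, and rose by 0.54 ± 0.13 (limma adjusted p = 0.0049). Kars had levels of 10.93, 11.02, 10.91 and 10.80 in Ox-total and 11.28, 11.21, 11.24 and 11.29 in Ox-ARP, and rose by 0.34 ± 0.08 (limma adjusted p = 0.0058). The groups overlapped in neither gene. Without peroxide the changes were 0.17 for Qars and 0.06 for Kars and did not pass. Nars2 went from the Ox-total levels given above to 6.12, 6.10, 6.29 and 5.98, without overlap, and rose by 0.36 ± 0.09 (limma adjusted p = 0.0062). On chips 1 and 2 alone the changes were 0.58 and 0.51 for Qars, 0.27 and 0.41 for Kars, and 0.41 and 0.32 for Nars2.

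**Figure D2:**
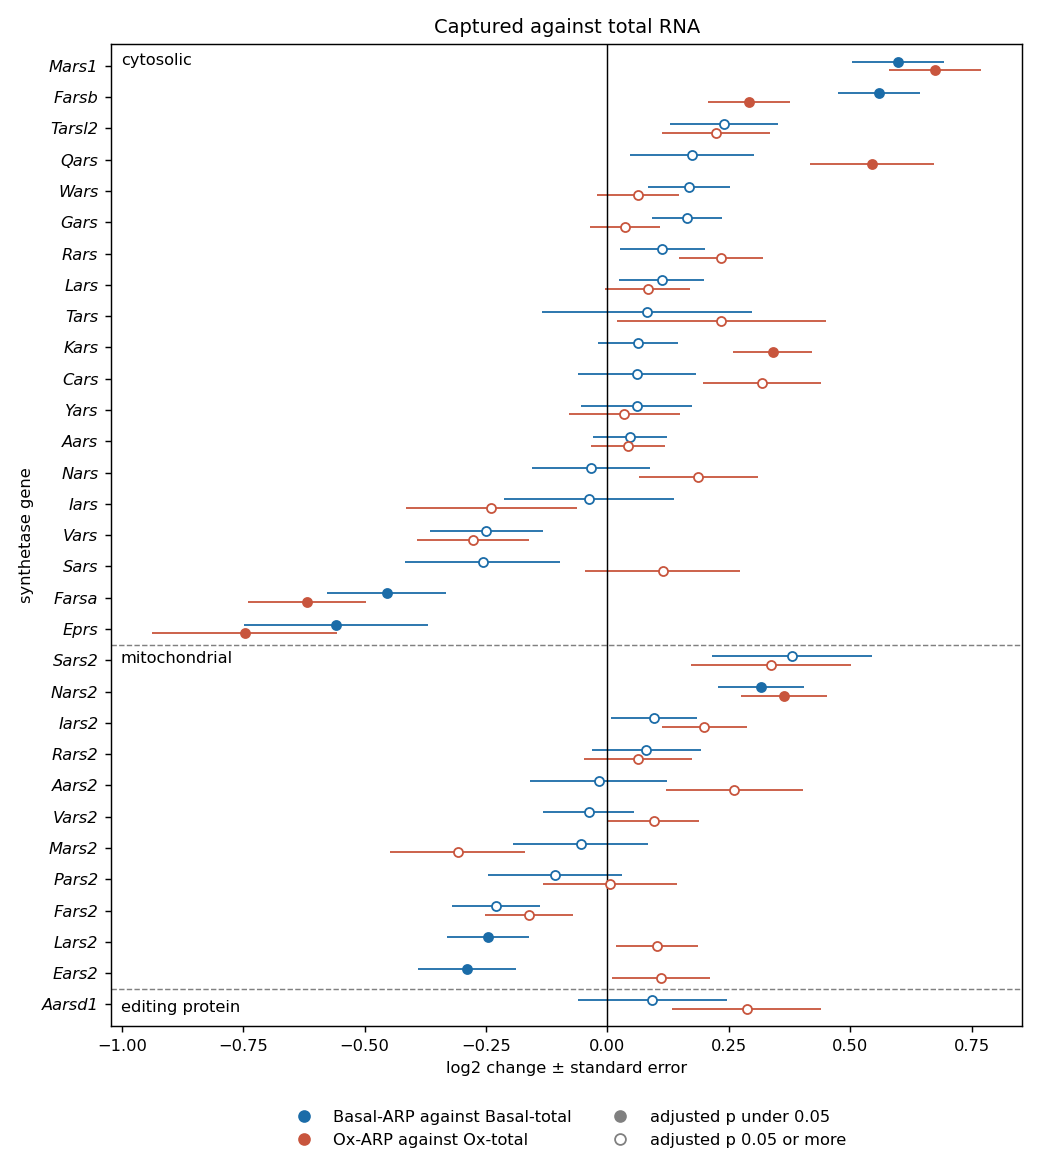
Change on capture of the 31 tested synthetase genes, as a log2 difference ± standard error on the x axis, without peroxide (Basal-ARP against Basal-total) and with peroxide (Ox-ARP against Ox-total), with filled points for an adjusted p under 0.05 and genes grouped by compartment. Farsb and Mars1 lie to the right of 0 and Farsa and Eprs to the left in both comparisons, and the gene changes span -0.75 to 0.67.

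Whether capture differed between treated and untreated cells was tested as an interaction, in which the basal change on capture is subtracted from that in treated cells. No synthetase gene passed: 0 of 31 in limma beside a background of 1.55%, with 3 higher and 1 lower at an unadjusted p under 0.05. The values were 0.40 for Ears2 (limma adjusted p = 0.15), 0.37 for Qars (0.30), 0.35 for Lars2 (0.14), 0.28 for Kars (0.22) and -0.27 for Farsb (0.25). The genes called on capture in 1 treatment but not in the other were therefore not shown to differ between treatments.

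The fourth comparison set captured RNA of treated cells against captured RNA of untreated cells, and it shares its arrays with both capture comparisons. Here 4 genes rose (Cars, Qars, Ears2 and Lars2) and 2 fell (Farsa and Nars2), 19.4% of the 31, beside a background of 27.4% (13.9% up and 13.5% down). The median was 0.10, beside 0.0273 over all genes, and array groups did not overlap for 7 genes, beside 25.9% of all genes. In unselected RNA the same 6 genes had changes of 0.28, 0.16, 0.01, 0.00, -0.40 and -0.33, in that order, and none passed.

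Cars was close to background. Its levels were 5.19, 5.50, 5.34 and 5.46 in Basal-total and 5.67, 5.81, 5.79 and 5.33 in Ox-total. In captured RNA they were 5.29, 5.63, 5.34 and 5.48 (Basal-ARP) and 6.14, 6.08, 5.94 and 5.72 (Ox-ARP). All Ox-ARP arrays lay above all Basal-ARP arrays, and the gene rose by 0.53 ± 0.12 (limma adjusted p = 0.0042). It was tested only because Ox-ARP, the group in which it was highest, passed the detection filter, so its rise adds no support to the count.

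Qars had levels of 10.66, 10.58, 10.33 and 10.55 in Basal-total and 11.01, 10.75, 10.54 and 10.52 in Basal-ARP. The 4 Ox-ARP levels given above exceeded all of these, and the gene rose by 0.53 ± 0.13 between the captured groups (limma adjusted p = 0.0061). Lars2 had levels of 8.76, 8.87, 8.93 and 8.90 in Ox-total and 8.95, 9.07, 8.89 and 8.96 in Ox-ARP, and rose by 0.35 ± 0.09 between the captured groups (limma adjusted p = 0.0061). Ears2 had levels of 8.99, 9.04, 9.02 and 8.78 in Ox-total and 9.09, 9.03, 9.05 and 9.10 in Ox-ARP, and rose by 0.41 ± 0.10 (limma adjusted p = 0.0069). For Lars2 and Ears2 the Basal-ARP arrays were the low ones, and the same Basal-ARP arrays enter their falls on capture without peroxide.

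Farsa fell between the captured groups by 0.56 ± 0.12, with no overlap (limma adjusted p = 0.0029). Nars2 fell by 0.28 ± 0.09 with overlapping groups (limma adjusted p = 0.026). Without replicates 1, 2 or 4 of Basal-ARP or the same numbers of Ox-ARP, Nars2 changed by -0.28 to -0.24 and no longer passed (adjusted p 0.0516 to 0.0884). On chips 1 and 2 alone the changes were 0.65 and 0.42 for Cars, 0.51 and 0.55 for Qars, 0.43 and 0.28 for Lars2, 0.27 and 0.55 for Ears2, -0.45 and -0.68 for Farsa, and -0.39 and -0.18 for Nars2.

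Chip 1 and chip 2 gave the same sign for all 20 calls, and all 20 passed with chip as a block. The calls were chosen on these same arrays and each change averages both chips, so shared signs were likely beforehand. Neither result is separate support for the calls. The fit with chip as a block left every change as it was, since each group lay evenly on both chips. That fit called 8 synthetase genes on capture without peroxide (Fars2 added) and 10 on capture with it (Cars, Mars2 and Rars added). Between the captured groups it called 9 (Fars2, Nars and Sars added). Over all 8072 features it called 3310, 2698 and 2953 in these comparisons, beside 2619, 2094 and 2214 without chip. Cars was tested only through Ox-ARP, the group in which it was highest. With the 8 arrays of a single chip 9 passed on chip 1, 7 on chip 2 and 4 on both (Farsb and Mars1 on capture without peroxide, Mars1 and Qars on capture with it).

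**Figure D3:**
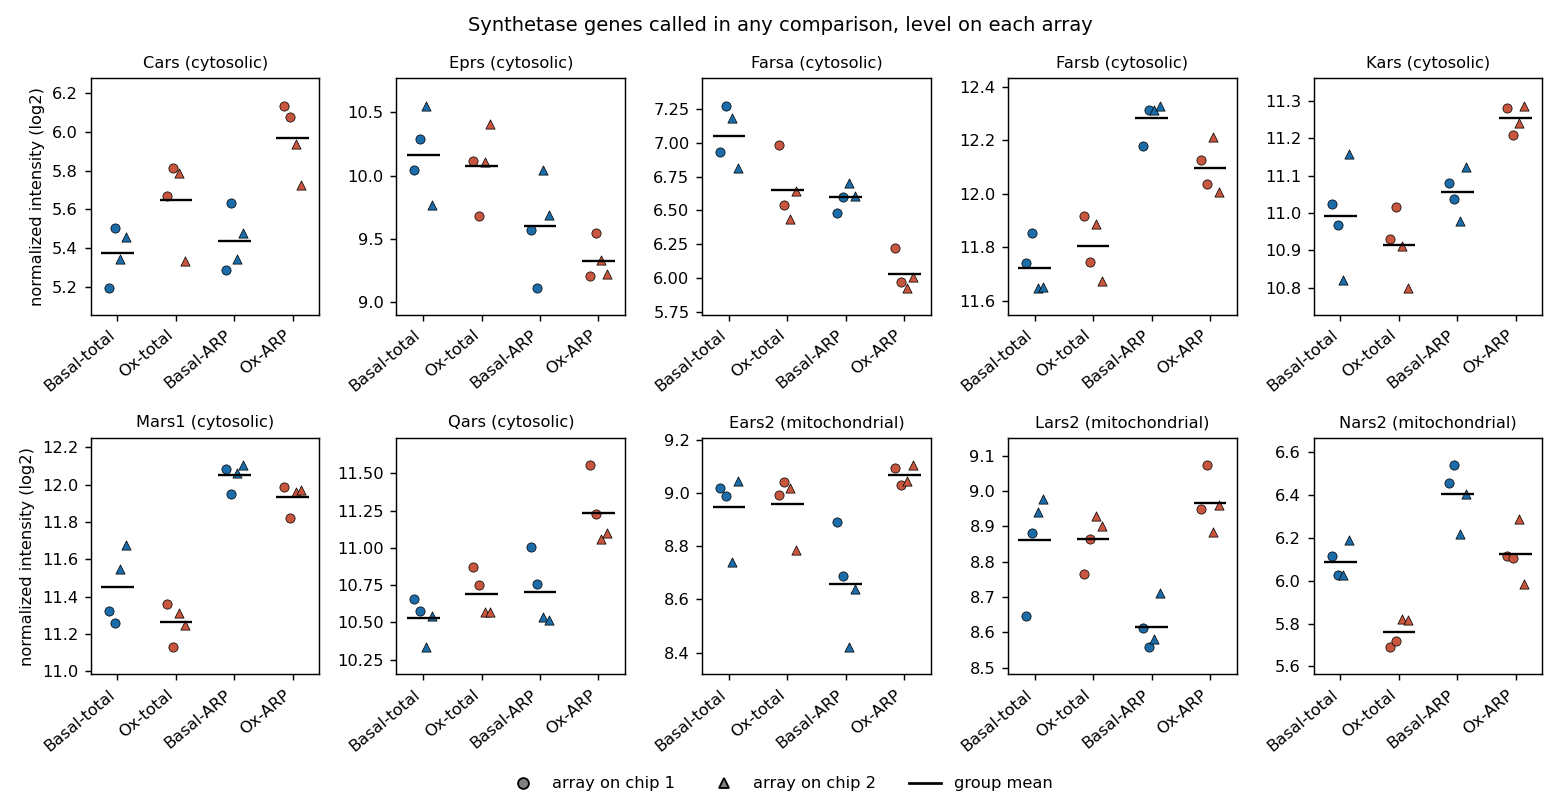
Levels on each of the 16 arrays, as log2 normalized intensity on the y axis, for the 10 synthetase genes called in any comparison, by group, with 1 point per array, its shape giving the chip, and a line at the group mean. Farsb and Mars1 are higher in both captured groups, Farsa is lowest in Ox-ARP at 5.93 to 6.22, and Lars2 and Ears2 have their lowest mean in Basal-ARP.

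The 4 genes next in order of adjusted p, Rars, Nars, Sars and Fars2, were called in no comparison in the fit without chip. With chip as a block Rars passed on capture with peroxide (limma adjusted p = 0.0375), Nars (0.0321) and Sars (0.0231) passed between the captured groups, and Fars2 passed there (0.0489) and on capture without peroxide (0.0464). Rars, the arginyl enzyme of the complex, had levels of 10.96, 10.94, 11.15 and 10.96 in Basal-total and 11.06, 10.98, 10.91 and 11.15 in Ox-total. In captured RNA they were 11.25, 10.95, 11.10 and 11.16 (Basal-ARP) and 11.25, 11.17, 11.25 and 11.36 (Ox-ARP). Nars, the cytosolic asparaginyl enzyme, had levels of 10.33, 10.39, 10.39 and 10.33 in Basal-total and 10.20, 10.49, 10.43 and 10.71 in Ox-total. In captured RNA they were 10.12, 10.26, 10.63 and 10.29 (Basal-ARP) and 10.41, 10.83, 10.60 and 10.75 (Ox-ARP). Both were highest on average in Ox-ARP, with overlap between Basal-ARP and Ox-ARP in each. Sars, the cytosolic seryl enzyme, had levels of 10.53, 10.40, 9.96 and 10.37 in Basal-total and 10.52, 10.34, 10.29 and 10.18 in Ox-total. In captured RNA they were 10.39, 10.21, 9.56 and 10.08 (Basal-ARP) and 10.72, 10.35, 10.25 and 10.46 (Ox-ARP). Fars2, the mitochondrial phenylalanyl enzyme, had levels of 9.76, 9.60, 9.68 and 9.71 in Basal-total and 9.77, 9.82, 10.03 and 9.78 in Ox-total. In captured RNA they were 9.53, 9.53, 9.36 and 9.40 (Basal-ARP) and 9.86, 9.58, 9.55 and 9.76 (Ox-ARP). Fars2 was low in Basal-ARP, below every array of the other groups, with changes of -0.23 on capture without peroxide and 0.23 between the captured groups, which passed in the fit with chip as a block and not in the fit without it. The other 17 tested genes without a call were Aars, Gars, Iars, Lars, Tars, Tarsl2, Vars, Wars and Yars among the cytosolic enzymes, Aars2, Iars2, Mars2, Pars2, Rars2, Sars2 and Vars2 among the mitochondrial ones, and Aarsd1.

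Cytosolic and mitochondrial enzymes were set against each other by their counts and medians. In unselected RNA 0 of 19 and 0 of 11 were called. On capture without peroxide 2 of 19 cytosolic genes rose and 2 fell (median 0.06), and 1 of 11 mitochondrial genes rose and 2 fell (median -0.04). On capture with peroxide 4 cytosolic genes rose and 2 fell (median 0.11), and 1 mitochondrial gene rose and 0 fell (median 0.10). Between the captured groups 2 cytosolic genes rose and 1 fell (median 0.00), and 2 mitochondrial genes rose and 1 fell (median 0.16). Of these 2 cytosolic genes, Cars was tested only through Ox-ARP, the group in which it was highest. Over all genes 0.31%, 32.4%, 25.9% and 27.4% were called in these comparisons, in the order given. The cytosolic median minus the mitochondrial one was -0.0174, 0.102, 0.0119 and -0.161 in these comparisons, in the order given, and -0.122 in the interaction. The SD of that score between the arrays of a group was 0.115. The difference between the captured groups was -0.0311 with the passing probes of a gene averaged, -0.114 without replicate 3 of Basal-ARP and -0.202 with the authors' values. That in the interaction was -0.0531 without replicate 1 of Basal-total and -0.159 without replicate 3 of Ox-ARP. The SD describes single arrays and not a difference between groups of 4, and none of these differences was tested.

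Pairs of a mitochondrial and a cytosolic enzyme of the same amino acid were formed by matching symbols. This gave 10 pairs for 9 mitochondrial enzymes, since Fars2 pairs with both Farsa and Farsb. Ears2 and Pars2 were left out of the pairs, although Eprs, which charges both Glu and Pro tRNAs, was tested. The cytosolic partner had the higher change in 2 of 10 pairs in unselected RNA and in 5 of 10 on capture without peroxide. It did so in 3 of 10 on capture with peroxide and in 3 of 10 between the captured groups. Outside these pairs, Eprs changed by -0.09, -0.56, -0.75 and -0.27 in these comparisons, in that order. Each value was below those of Ears2 (0.01, -0.29, 0.11 and 0.41) and Pars2 (0.10, -0.11, 0.01 and 0.21). Partners could differ in sign. On capture without peroxide Mars1 changed by 0.60 and Mars2 by -0.05, and Lars changed by 0.11 and Lars2 by -0.25. Between the captured groups Nars changed by 0.32 and Nars2 by -0.28, and only the mitochondrial value passed.

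By structural role, 7 tested enzymes belong to the multisynthetase complex. Of these 1 rose and 1 fell on capture without peroxide (Mars1 and Eprs), 3 rose and 1 fell with it (Mars1, Qars and Kars, and Eprs), and 1 rose between the captured groups (Qars), with medians of 0.112, 0.234 and 0.0914. Of the 12 cytosolic enzymes outside the complex 1 rose and 1 fell in each of these comparisons. Over all genes 32.4%, 25.9% and 27.4% were called in them, in the same order. Enzymes inside and outside the complex were not tested against each other. The enzymes fall into 2 structural classes by the fold of their catalytic domain. Between the captured groups 4 of 15 class I genes rose (Cars, Qars, Lars2 and Ears2) and 0 fell, and 0 of 14 class II genes rose and 2 fell (Farsa and Nars2), beside 13.9% of all genes up and 13.5% down. Cars is among these only through the group in which it was highest, and the classes were not tested against each other. The class medians there were 0.108 and 0.0872. Across the 31 genes Spearman's rho between the genomic span of the gene and its change was 0.070 on capture without peroxide and -0.081 with it, and genes are not independent replicates.

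Several probes passed for 11 of the 31 genes, 26 probes in all. Over the 46 passing probes, 0 were called in unselected RNA (background 0.241% of passing probes), 6 rose and 5 fell on capture without peroxide (31.9%), 7 rose and 5 fell with it (27%), 7 rose and 4 fell between the captured groups (29.2%), and 0 passed in the interaction (2.48%). No gene had probes called in opposite directions within a comparison. All probes of a gene had the same sign for 10 of the 11 genes in each capture comparison and for 8 between the captured groups.

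Wars, the cytosolic tryptophanyl enzyme, had 4 passing probes with unlike changes. Its brightest probe was called in no comparison. Another had levels of 7.69, 7.50, 7.71 and 7.63 in Basal-ARP and 6.92, 6.33, 6.87 and 6.72 in Ox-ARP, without overlap, and fell by 0.92 ± 0.14 between the captured groups (limma adjusted p = 0.000141 over all probes). The same probe fell by 0.49 on capture with peroxide (limma adjusted p = 0.012), where the other 3 probes had changes of 0.06, 0.34 and 0.40 that did not pass. The remaining pair rose by 0.58 each on capture without peroxide (limma adjusted p = 0.0068 and 0.0094) and did not pass between the captured groups, at -0.23 and -0.09. Vars, the cytosolic valyl enzyme, had 3 passing probes, of which 1 fell by 0.70 on capture with peroxide (limma adjusted p = 0.013) and a different 1 rose by 0.35 between the captured groups (limma adjusted p = 0.029). The second Mars1 probe rose by 0.29 between the captured groups (limma adjusted p = 0.0056), where the brighter probe differed by -0.11. The second Eprs probe fell by 0.89 there (limma adjusted p = 0.021), where the brighter probe differed by -0.27. A Rars probe other than the brightest rose by 0.27 (limma adjusted p = 0.015). The sources used here do not say which transcript forms these probes detect.

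**Figure D4:**
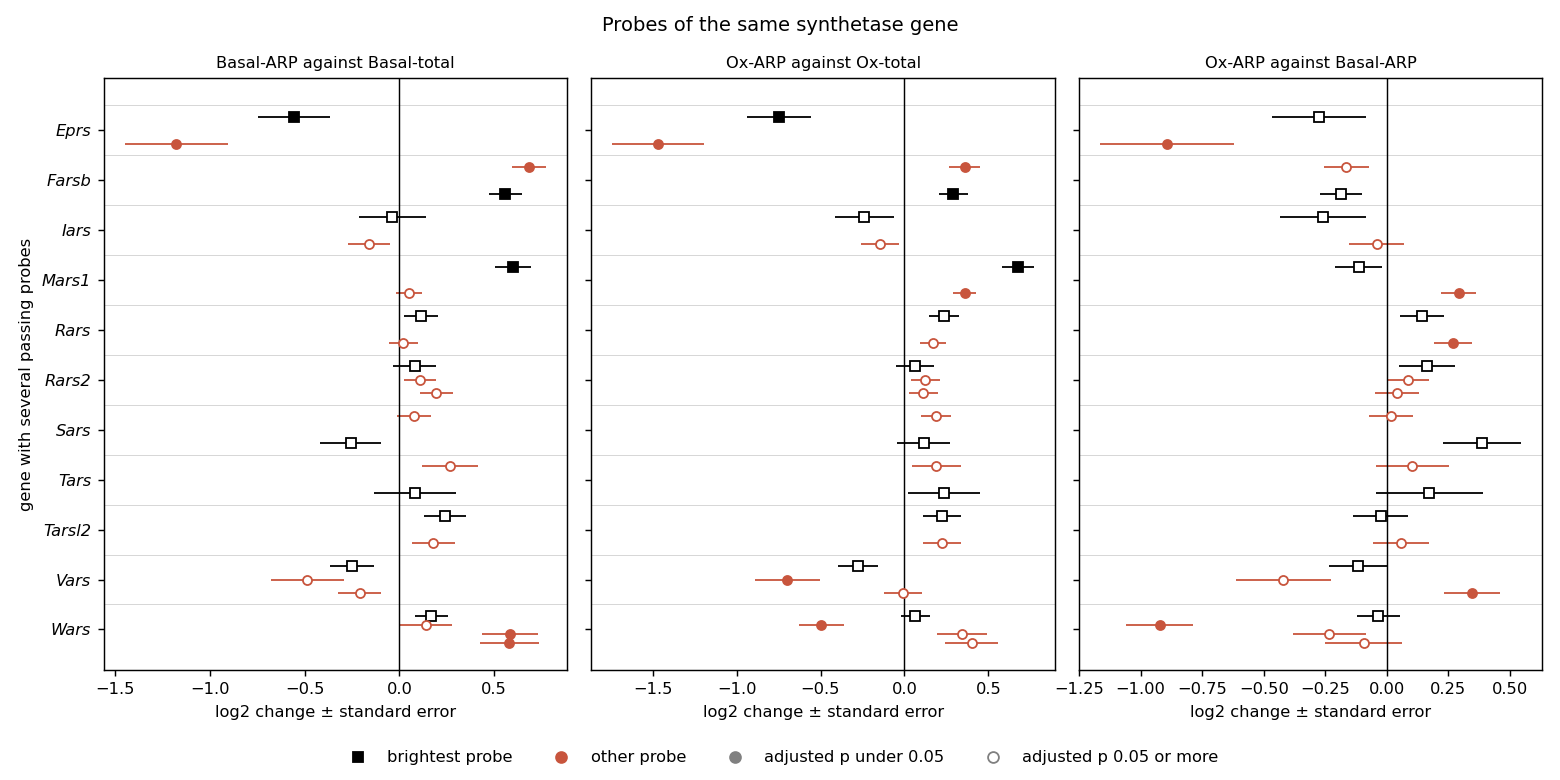
Changes of the single probes of the 11 synthetase genes with several passing probes, as log2 differences ± standard error on the x axis, in both capture comparisons and between the captured groups, with squares for the brightest probe of a gene, circles for the others and filled points for an adjusted p under 0.05 over all passing probes. The probes of Farsb lie close together, while those of Wars spread from -0.92 to -0.03 between the captured groups.

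The genes around the synthetases in the making and use of charged tRNA were read from lists chosen with earlier results of these data known, and each count stands beside the background of its comparison given above. In unselected RNA 0 genes of every list passed. The scaffold proteins of the multisynthetase complex, Aimp1, Aimp2 and Eef1e1, were all tested. Without peroxide 2 of 3 fell on capture, Aimp1 by 0.45 ± 0.07 (limma adjusted p = 0.000132) and Eef1e1 by 0.49 ± 0.11 (limma adjusted p = 0.0035). With peroxide the same 2 fell, Eef1e1 by 0.40 and Aimp1 by 0.21, and between the captured groups Aimp1 rose by 0.34. Qrsl1, a subunit of the mitochondrial enzyme that makes Gln-tRNA from Glu-tRNA, was the 1 of 4 genes called among the amidotransferase and formyltransferase list: it rose by 0.35 on capture without peroxide and fell by 0.43 between the captured groups. Its interaction of -0.50 ± 0.10 passed (limma adjusted p = 0.019). Of 2 tested proofreading genes, Prorsd1, which carries the editing domain of prolyl enzymes, fell by 0.56 and by 0.68 on capture without and with peroxide.

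Of 18 tested genes of tRNA end processing and splicing, 0 rose and 4 fell on capture in each treatment, with medians of -0.25 and -0.08. The RNase P subunits Rpp21, Rpp30 and Rpp38 fell in both, Rpp21 by 0.77 ± 0.11 without peroxide (limma adjusted p = 7.5e-05) and by 0.84 ± 0.11 with it (limma adjusted p = 3.7e-05). The others were Hsd17b10, of the mitochondrial RNase P, without peroxide and Pop4 with it. Between the captured groups 4 rose (Tsen54 by 0.73, Hsd17b10 by 0.55, Tsen34 by 0.48 and the ligase Rtcb by 0.43) and 0 fell. Of 37 tRNA modification genes 5 rose and 6 fell on capture without peroxide, 7 rose and 3 fell with it, and 9 rose and 4 fell between the captured groups. Trmt2a, a uridine methyltransferase, rose in both capture comparisons (0.44 and 0.33), and Elp3, the catalytic subunit of Elongator, rose by 0.44 between the captured groups (limma adjusted p = 0.00057). Of 6 genes of tRNA export and delivery 1 rose and 1 fell, 1 rose, and 2 rose in these comparisons, in that order. The translation elongation factor gene Eef1g rose by 0.28 and 0.24 on capture without and with peroxide.

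Of 28 tested genes of the ATF4 amino acid response, 0 passed in unselected RNA, with a median of -0.06. On capture 5 rose and 4 fell in each treatment. Slc1a5, a glutamine transporter, rose by 1.95 ± 0.16 without peroxide (limma adjusted p = 2.6e-07) and by 0.71 ± 0.16 with it, and its interaction of -1.24 ± 0.22 passed (limma adjusted p = 0.011). Atf4 itself, named after its value was seen, rose by 0.69 on capture without peroxide (limma adjusted p = 0.00083). Between the captured groups 3 rose and 5 fell, among them Slc38a2, a neutral amino acid transporter, by 1.21 and Phgdh, which starts serine synthesis, by 0.95. Of 7 tested genes of amino acid sensing 1 rose on capture without peroxide (Rragc by 0.24) and 1 with it (Eif2ak1, the kinase HRI, by 0.34), and 0 passed between the captured groups.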

How the data were processed

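Biotinylated RNA from 16 samples was hybridised to Illumina mouse bead arrays; per the labels' protocols it was amplified with the Ambion TotalPrep kit. The deposited scanner table holds a linear bead intensity and a detection p-value for each probe. The submitters' processing notes name GenomeStudio 2010.2. A second table deposited by the authors holds processed intensity, with column medians of 12.34 to 16.34, values below 0 and an unstated background step. It was used as an alternative.

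Intensities were background corrected by normexp (offset 16), with the negative controls' distribution estimated from the detection p-values, quantile normalized and taken to log2 in limma 3.58.1 (R 4.3.3). The offset draws fold changes of dim probes towards 0. Of 25697 probes 10794 passed the detection filter, and each gene was represented by its brightest passing probe, which gave 8072 features, 608 of them without a symbol. With lmFit and eBayes, 1 linear model over the 16 arrays gave each group its mean (12 residual and 5.339 prior degrees of freedom), and 5 differences were taken. The fit was checked on simulated data. Standard errors had a median of 0.118 between groups and of 0.166 in the interaction. All 35 genes were matched by gene ID to RefSeq GRCm38.p6. Symbols came from the platform annotation.

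Every tested member is named, array values are given for the 14 members with the smallest adjusted p, and up to 4 genes of each other list were taken by p. Atf4 and the value of Trmt2a with peroxide fall outside that rule and were added after their values were seen. Members and lists were chosen with earlier results of these data known. Alternatives covered normalization, background offset, the authors' values, the detection filter, the probe rule, chip, a replicate block, the arrays fitted and leaving out each array.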

Additional observations from a re-analysis of the deposited data

Results flagged for a closer look

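In 5 of 124 sets of a gene and a group, 1 array stood apart from the other 3; chance gives about 1 in 20. Farsb was at 12.18 on replicate 1 of Basal-ARP and at 12.31 to 12.33 on the others. Mars1 was at 11.82 on replicate 2 of Ox-ARP and at 11.96 to 11.99 on the others. Rars was at 11.15 on replicate 3 of Basal-total and at 10.94 to 10.96 on the others. Tarsl2, a cytosolic threonyl enzyme, was at 8.319 on replicate 1 of Ox-total and at 7.844 to 7.874 on the others. Yars was at 6.221 on replicate 4 of Ox-ARP and at 6.39 to 6.419 on the others.

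No synthetase gene was called in the interaction of capture and peroxide in limma (0 of 31, beside 1.55% of all genes), but 4 genes of the other lists were. These were 1 of 4 amidotransferase and formyltransferase genes and 3 of 28 genes of the ATF4 response. Each of the remaining lists had 0. The lists were chosen with earlier results of these data known. Qrsl1 had an interaction of -0.4952, with changes of 0.3548 without and -0.1404 with peroxide (limma adjusted p = 0.0192). Slc1a5 had an interaction of -1.236, with 1.95 and 0.7136 (limma adjusted p = 0.0114). Slc38a2 had an interaction of -0.8564, with 0.227 and -0.6294 (limma adjusted p = 0.0114). Cebpb, a C/EBP transcription factor, had an interaction of 0.4822, with -0.4129 and 0.06931 (limma adjusted p = 0.0313).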

How the results depend on the processing

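Over 13 other settings the 20 calls were kept in 205 cases, lost in 54 and reversed in 0. Over the 16 arrays left out in turn they were kept in 296, lost in 24 and reversed in 0. Many of these cases left out an array outside the groups compared, which cannot alter the change, only its standard error. All 24 losses came from arrays inside the groups compared. The causes were not tested. The main fit called 25, 2619, 2094 and 2214 of all 8072 features in the 4 comparisons, in the order given. Without normalization 0 and 1 (Qars) synthetase genes were called on capture without and with peroxide, beside 844 and 505 of all features. With the authors' values 1 gene passed in unselected RNA (Nars2 at -0.57, limma adjusted p = 0.0311), beside 49 of all features. On capture with peroxide 13 then passed (11 up, 2 down), beside 2442 of all features. Capture without peroxide split into 5 up and 2 down, beside 2635 of all features. With median scaling capture with peroxide gave 8 up and 2 down, beside 1785 of all features. The captured groups gave 7 up and 1 down, beside 2224. The median of all genes moved to 0.142 with median scaling and 0.195 without normalization between the captured groups, to -0.109 without normalization on capture without peroxide, to 0.14 without it in the interaction, and to 0.112 with the authors' values on capture with peroxide. With passing probes averaged per gene the cytosolic minus mitochondrial median between the captured groups was -0.0311. On chip 1 alone 4, 4 and 1 genes were called on capture without peroxide, on capture with it and between the captured groups, and on chip 2 alone 2, 3 and 2. Over all features chip 1 alone called 1359, 1175 and 715, and chip 2 alone called 1021, 547 and 700. With the arrays of the comparison alone 4 were called on capture without peroxide.

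Same-numbered arrays of different groups correlated over 0.1 in 20 of 24 cases (range -0.26 to 0.71, median 0.31). Other arrays of the same chip did so in 19 of 24 (median 0.28), and arrays across chips in 6 of 48. The correlations were taken after subtracting group means, which ties the arrays of a group to each other. They therefore cannot show whether same-numbered samples were paired. The replicate block gave 12 genes on capture with peroxide and 1 in the interaction (Qars at 0.37, limma adjusted p = 0.0427). That block raised calls over all features too: on capture without peroxide it called 3495, beside 2619 in the main fit. With chip as a block 526 of all features passed in the interaction, beside 125 in the main fit. For the replicate block such counts are not given here for the interaction or for capture with peroxide. The 12 genes and the Qars call can therefore not be weighed against them. Leaving out 1 array gave 4 (without replicate 2 of Basal-total) to 7, 6 to 8 and 5 to 7 genes in the capture comparisons and between the captured groups, and 0 in unselected RNA and the interaction. The cytosolic minus mitochondrial medians ran from -0.0511 to 0.0546 in unselected RNA, 0.0566 to 0.153 and -0.0235 to 0.0439 on capture without and with peroxide, -0.174 to -0.114 between the captured groups and -0.159 to -0.0531 in the interaction. The number of arrays limits the precision.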

Other observations

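Of the 4 synthetase genes that did not pass the detection filter, Hars and Wars2 were each detected on 2 arrays and Hars2 and Yars2 on 0. Wars2, the mitochondrial tryptophanyl enzyme, had levels of 5.28, 6.12, 5.88 and 5.34 in Basal-total, where both detected arrays lay, and of 4.47 to 5.29 on the other 12 arrays. The other Wars2 probes were detected on 0 arrays. Wars2 was detected on 2 of 4 arrays in Basal-total and on 0 in Basal-ARP, so the size of a fall is not known. With no filter on dim probes, its change on capture without peroxide was called (-0.805, limma adjusted p = 0.004). In that fit Hars, Hars2 and Yars2 were called in no comparison.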
